A study of Mus musculus with 7 samples.

Results

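The matrix metalloproteases (MMPs), the ADAM and ADAMTS metalloproteases and the tissue inhibitors of metalloproteases (TIMPs) were described across 7 libraries of sorted mouse muscle cells. The members were all genes of the deposited expression table whose symbol begins with Mmp, Timp or Adam and a number, or with Adamts, which gave 82 of 23930 genes. They comprised 23 Mmp, 4 Timp, 31 Adam, 19 Adamts and 5 Adamtsl genes. The study asked how chronic hypercapnia, a raised level of carbon dioxide, alters the transcripts of muscle satellite cells. Mice carried an inducible Pax7-GFP reporter (Pax7-Cre+/- Lox-GFP+/+), in which tamoxifen labels cells that then express Pax7, together with their progeny, and every animal received tamoxifen from 12 weeks of age. The genotype labels number the strain from C57BL/6 to C57BL/12, a different name for each library, and C57BL/6 was taken for all of them. The 3 normocapnia libraries came from mice kept in room air and the 4 hypercapnia libraries from mice kept at 10% CO2, both for 4 weeks, with collection at 16 weeks. By the study's methods, the tibialis anterior and gastrocnemius muscles of both groups were injected with cardiotoxin 3 days before collection. All hind leg muscles were then digested and sorted for GFP-positive cells, so injected and other muscles went into the same libraries and none was of uninjured animals. The labels do not mention the injury, and the deposited table carries another time in its name, 40 hours. The methods give 40 hours only for a proliferation assay on cultured satellite cells, and not for the sequenced cells. Expression was measured with the Ion AmpliSeq mouse transcriptome panel, which amplifies a short stretch of each gene, and is given as RPM, the reads of a gene divided by all reads of the library and scaled up. RPM values therefore compare a gene between libraries and do not rank genes by transcript number. Nothing in the labels ties a library to a single animal or a pool, and p-values measure only the spread between these libraries.

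MMPs are zinc proteases that cut collagens, gelatins, elastin and other proteins of the extracellular matrix, and most are made as inactive precursors. ADAMs sit in the membrane and release the outer parts of other membrane proteins, while ADAMTS proteases are secreted and cut proteoglycans, procollagens and other matrix proteins. TIMPs bind the active site of these enzymes. In injured muscle, macrophages, fibro-adipogenic cells, endothelial cells and satellite cells all make members of the family, and matrix cleavage is part of how satellite cells leave the basal lamina and migrate.

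Total reads ranged from 14527445 to 23388710 per library, so that 1 read was worth 0.0428 to 0.0688 RPM, and intervals from such depths cover counting error only. The labels name the sorted cells Pax7+ stem cells, but markers of other cell types were also read. The 9 macrophage markers summed to 12030 to 34607 RPM per library, of which Lyz2 alone made up 8354 to 29108 RPM. The 9 satellite cell markers summed to 102 to 2590 RPM, and Pax7 ranged from 4.34 to 268 RPM. Sums over different amplicons are not shares of cells and are compared only between libraries. Endothelial markers summed to 89.6 to 241 RPM in normocapnia and 58.2 to 560 RPM in hypercapnia, fibro-adipogenic markers to 1034 to 1767 and 935 to 2230 RPM, myofiber markers to 307 to 4911 and 397 to 2462 RPM, and lymphocyte markers to at most 3.05 RPM in any library. In bulk RNA, fewer cells of a type and less RNA per cell cannot be told apart. Xist was above 1 RPM in 4 libraries (normocapnia 1 and 2, hypercapnia 1 and 2), and the Y-linked genes Ddx3y, Eif2s3y and Uty were high in the other 3, so both groups held libraries of both kinds.

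Of the 82 members, limma on log2(RPM + 1) called 2, near the 2.57% of all genes called. Calls were at an unadjusted p below 0.05 and a fold change above 1.5. The 2 were Mmp8 and Mmp27 (limma adjusted p = 0.809 and 0.915), neighbouring genes of 1 MMP cluster. Quantile normalization and the replicate block called neither, and the count models also called other MMPs, with smaller p-values than Mmp8 for Mmp9 and Mmp19. By the RefSeq gene order, the mouse cluster on chromosome 9 holds 10 MMP genes in the order Mmp13, Mmp12, Mmp1b, Mmp3, Mmp1a, Mmp10, Mmp8, Mmp27, Mmp20 and Mmp7. Many MMP promoters are known to carry an AP-1 site, bound by Fos and Jun proteins, close to a TATA box. The 250 bases before the start site are shown for Mmp8 and Mmp27, which were higher in hypercapnia, and for Mmp12 and Mmp13, the other cluster members with the most reads, which did not pass that test. Sequences are from RefSeq on GRCm38.p6 (forward strand), at chr9:7571146-7571395 for Mmp27, chr9:7558179-7558428 for Mmp8, chr9:7347124-7347373 for Mmp12 (1 of 2 listed start sites) and chr9:7272264-7272513 for Mmp13. Capitals mark AP-1 matches (TGANTCA, which reads the same on both strands) and TATAAA on the strand of the gene, and no match overlaps another.
Mmp27: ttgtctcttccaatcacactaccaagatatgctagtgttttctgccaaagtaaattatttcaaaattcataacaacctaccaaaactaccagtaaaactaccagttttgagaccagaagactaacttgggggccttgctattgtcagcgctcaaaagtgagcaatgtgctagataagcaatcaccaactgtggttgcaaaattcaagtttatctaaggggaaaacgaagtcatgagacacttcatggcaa
Mmp8: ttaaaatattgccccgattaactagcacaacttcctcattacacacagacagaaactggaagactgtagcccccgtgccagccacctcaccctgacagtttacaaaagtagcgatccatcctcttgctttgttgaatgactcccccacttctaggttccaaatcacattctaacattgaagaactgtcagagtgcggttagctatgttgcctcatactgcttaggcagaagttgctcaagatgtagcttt
Mmp12: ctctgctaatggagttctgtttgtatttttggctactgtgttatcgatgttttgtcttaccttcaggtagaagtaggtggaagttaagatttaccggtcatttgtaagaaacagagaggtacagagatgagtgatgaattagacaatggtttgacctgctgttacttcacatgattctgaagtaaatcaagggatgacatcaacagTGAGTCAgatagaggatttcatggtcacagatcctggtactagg
Mmp13: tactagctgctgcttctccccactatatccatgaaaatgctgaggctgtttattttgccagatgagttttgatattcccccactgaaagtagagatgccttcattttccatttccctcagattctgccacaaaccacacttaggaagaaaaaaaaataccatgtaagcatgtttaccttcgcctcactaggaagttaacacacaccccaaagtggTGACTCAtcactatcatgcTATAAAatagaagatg
The Mmp13 stretch holds the AP-1 letters 35 bases and TATAAA 16 bases before the start, and the Mmp12 stretch holds the AP-1 letters 44 bases before it. The window at the other listed start of Mmp12 holds neither motif, and the same is true of 1 of 2 listed starts of Mmp7. Neither motif is found in the 250 bases shown for Mmp8 or Mmp27. Among the 10 cluster genes, 8 have an AP-1 match in this window at a listed start, and 7 of them have TATAAA as well. The other 2 are Mmp8 and Mmp27. Of the 8, Mmp7 and Mmp20 had no read in any library, Mmp1a and Mmp1b had 1 read each and Mmp10 had 4 reads in all. These genes were too low to be called, so only Mmp3, Mmp12 and Mmp13 can be set against the pair. Across the 27025 genes of the promoter table, 7.82% have the AP-1 letters in the window, 8.94% have TATAAA and 0.944% have both. Of the 82 members, 52 matched an entry, and 11 of these had AP-1, 11 had TATAAA and 8 had both. These matches describe letters only, and the motifs were searched after the values were seen.

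Across the family, hypercapnia and normocapnia differed in few genes. A gene was called at an unadjusted p below 0.05 in limma on log2(RPM + 1) with a fold change above 1.5, the thresholds of the study. Of the 82 members 2 were called, both higher in hypercapnia (Mmp8 and Mmp27) and none lower, against 2.57% of all genes called, 1.43% higher and 1.14% lower. The members' share is therefore near the background. Quantile normalization of the same values called 3 other members, all lower (Adamts15, Mmp11 and Mmp25), and neither Mmp8 nor Mmp27. In that setting 2.9% of all genes were called. The lowest Benjamini-Hochberg adjusted p over all genes was 0.809 among the members and 0.351 among all genes, so no member passed an adjusted threshold. Of the 50 members at a mean of at least 1 RPM, 25 had estimates above 0 and 25 below, with a median log2 fold change of 0.00 beside 0.16 for all 12504 genes at that level. Groups did not overlap in 2 of the 50, against 7.72% of all genes at that level. The remaining members were low: 7 had no read in any library, another 9 had at most 3 reads in all, and the rest lay below 1 RPM.

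**Figure D1:**
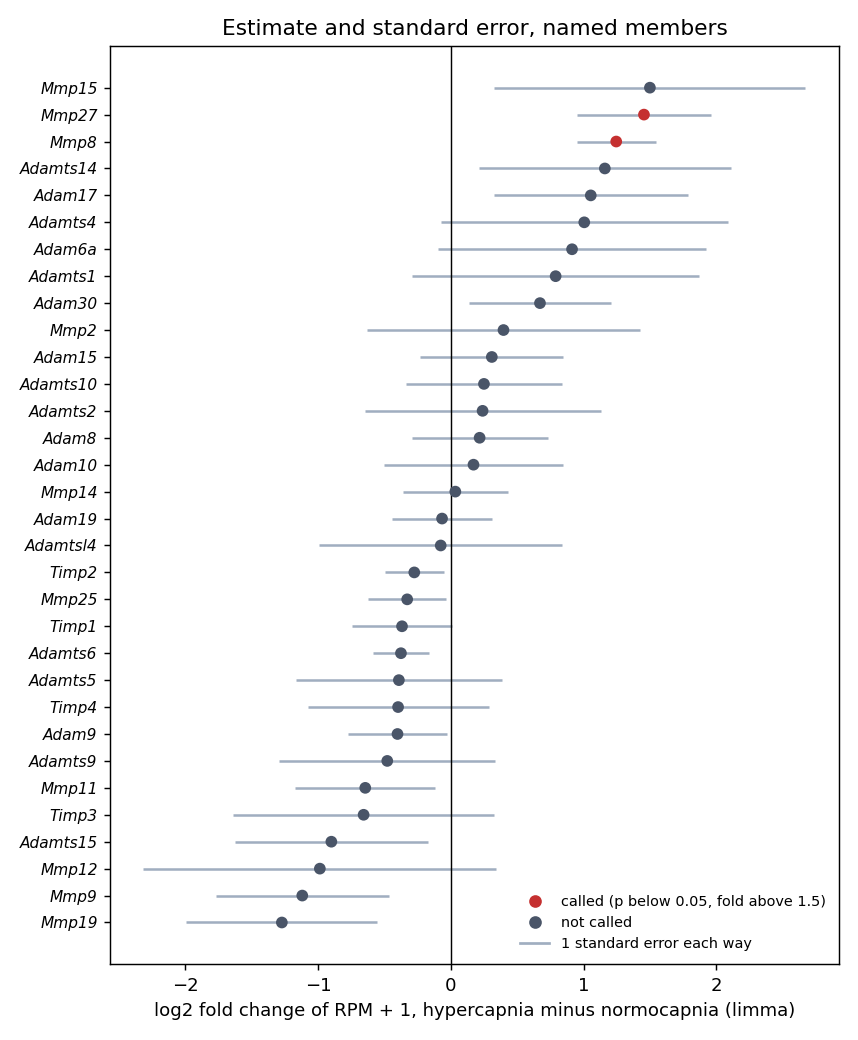
Log2 fold changes of RPM + 1 (x axis, hypercapnia minus normocapnia, limma) of the 32 named members, with 1 standard error each way. The points for Mmp8 and Mmp27 are the only ones called, and the widest error bars belong to Mmp12, Mmp15, Adamts1 and Adamts4.

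Among the collagenases, which cut fibrillar collagen, Mmp8 was higher in hypercapnia. Mmp8 is known as neutrophil collagenase and is also made by other myeloid cells. It stood at 7.54, 17.0 and 16.7 RPM in normocapnia 1 to 3, and at 34.6, 27.0, 35.0 and 32.6 RPM in hypercapnia 1 to 4. All 4 hypercapnia libraries lay above all 3 normocapnia libraries, and the 4 differed little among themselves. The means were 13.8 ± 5.39 (SD, n = 3) and 32.3 ± 3.70 RPM (SD, n = 4), a ratio of 2.35. The log2 fold change was 1.25 (SE 0.30, limma adjusted p = 0.809). These levels rest on 169 to 809 reads per library. The call was kept when any single library was left out, with estimates from 0.89 to 1.43, and was lost under median-of-ratios scaling (1.10), quantile normalization (1.15) and the replicate block (1.24).

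The neutrophil markers were set beside Mmp8, and their groups overlapped. The 9 markers summed to 142, 53.9 and 30.4 RPM in normocapnia and 48.9, 13.0, 172 and 113 RPM in hypercapnia. Within normocapnia, the library with the highest sum (normocapnia 1) had the lowest Mmp8. Within hypercapnia, hypercapnia 2 was lowest and hypercapnia 3 highest for both the sum and Mmp8. S100a8 (6.63 to 52.9 RPM), S100a9 (5.28 to 80.9 RPM) and Retnlg (0.904 to 41.5 RPM) made up most of the sum, while Mpo was listed at 0 in every library, Elane was at most 0.171 RPM and Ly6g at most 0.125 RPM. The part of neutrophil RNA in the Mmp8 values was not tested. Within the 4 libraries with Xist, Mmp8 was 7.54 and 17.0 RPM in normocapnia against 34.6 and 27.0 RPM in hypercapnia, and within the other 3 it was 16.7 against 35.0 and 32.6 RPM. Of the 50 members, 3 were higher in hypercapnia within both sets (Mmp8, Mmp27 and Adam17) and 2 lower (Mmp19 and Adam22), against 10.1% and 7.89% of all genes at this level.

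Mmp13, the other collagenase with a mean of at least 1 RPM, ranged from 1.79 to 16.7 RPM in normocapnia and from 5.69 to 16.2 RPM in hypercapnia. Its groups overlapped fully. Mmp1a and Mmp1b, close copies whose reads may be hard to tell apart, had 1 read each over all libraries.

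Mmp27 is among the least studied MMPs. Its level was 0.491, 0.385 and 0.551 RPM in normocapnia, and 5.44, 5.98, 0.875 and 2.17 RPM in hypercapnia. Every hypercapnia library was above every normocapnia library, but hypercapnia 3 lay close to the controls, and hypercapnia 1 and 2 held most of the difference. In reads, normocapnia libraries had 11, 9 and 8, and hypercapnia libraries had 127, 119, 14 and 32. The means were 0.476 ± 0.0841 (SD, n = 3) and 3.61 ± 2.48 RPM (SD, n = 4), and the log2 fold change was 1.46 (SE 0.51, limma adjusted p = 0.915). This scale understates the change of so low a gene, since the pseudocount is larger than its normocapnia level, and with a pseudocount of 0.1 RPM the estimate was 2.36. The call was lost without normocapnia 1 (1.46), 2 (1.41) or 3 (1.49), without hypercapnia 1 (1.23) or 2 (1.19), with a pseudocount of 5 RPM (0.61), under quantile normalization (1.06) and under the replicate block (1.57). The macrophage surface gene Adgre1 also rose, from 109, 149 and 70.5 RPM to 392, 429, 151 and 184 RPM (log2 fold change 1.31, called by the same thresholds), and was likewise highest in hypercapnia 1 and 2. It was the only called gene of the 9 macrophage markers, whose sum had overlapping groups. Csf1r, Itgam and Lyz2 had estimates of -0.14, -0.12 and -0.01, and the other markers ran from 0.05 (Cd14) to 0.59 (Cd68). The part of Adgre1 in the Mmp27 difference was not tested.

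**Figure D2:**
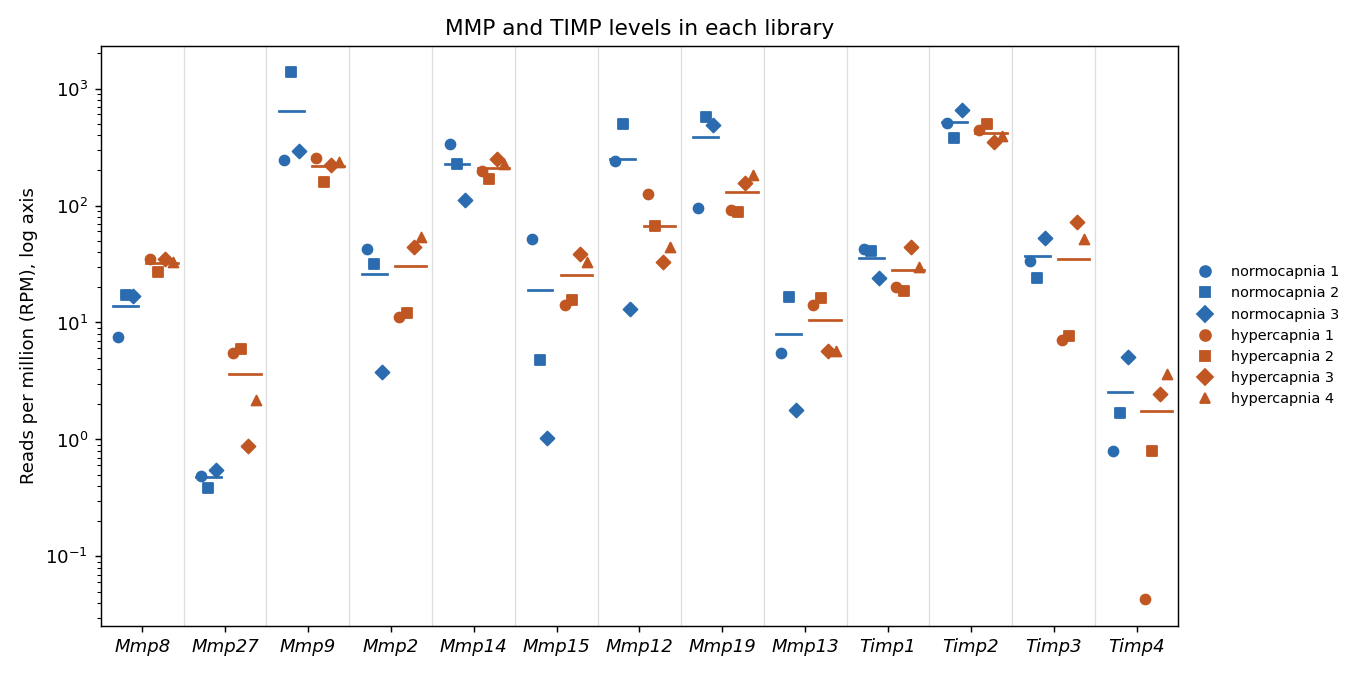
RPM (log axis) of 9 MMPs and the 4 TIMPs in each library, with normocapnia in blue and hypercapnia in orange, 1 symbol per library and a bar at each group mean. The groups separate for Mmp8 and Mmp27, while Mmp9 and Mmp12 are spread by normocapnia 2 and normocapnia 3.

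The gelatinases cut denatured collagen and basement membrane collagen. Mmp9, made by macrophages and neutrophils among other cells, stood at 245, 1377 and 295 RPM in normocapnia and at 253, 158, 220 and 234 RPM in hypercapnia. Normocapnia 2 lay far above the other 6 libraries, and normocapnia 1 was within the hypercapnia range. The log2 fold change was -1.12 (SE 0.65, limma adjusted p = 0.915), and without normocapnia 2 it was -0.33. Mmp2, made mainly by mesenchymal cells, was 42.8, 31.7 and 3.79 RPM in normocapnia and 11.2, 12.0, 44.0 and 54.0 RPM in hypercapnia (0.40, SE 1.03). Its low and high libraries came from both groups.

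Macrophage elastase, Mmp12, varied widely between libraries. It was 239, 493 and 13.1 RPM in normocapnia and 125, 66.9, 32.7 and 44.2 RPM in hypercapnia, with both the highest and the lowest value in normocapnia. The estimate was -0.99 (SE 1.33, limma adjusted p = 0.916). Leaving out normocapnia 2 gave 0.04 and leaving out normocapnia 3 gave -2.52, so either library decided it. Mmp19, which acts on basement membrane proteins, was 95.3, 571 and 486 RPM in normocapnia and 90.9, 88.0, 155 and 184 RPM in hypercapnia. Normocapnia 2 and 3 were above all 4 hypercapnia libraries, and normocapnia 1 was level with hypercapnia 1 and 2. The estimate was -1.27 (SE 0.72, limma adjusted p = 0.915). Without normocapnia 1 it was -2.09 and called, and without normocapnia 2 it was -0.80.

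Count models drew the line elsewhere for these 3 genes. On the whole reads recovered from the RPM values, edgeR without a filter called 5 members, with 4.38% of all genes called, and DESeq2 called 5 of 73 members tested, with 6.25% of all genes called. Both called Mmp8 and Mmp27 higher and Mmp9, Mmp19 and Mmp12 lower. With its filter on low counts edgeR called 4 of 51 members tested, all of these except Mmp12, with 6.03% of all genes called. The estimates were -1.70, -1.84 and -1.85 for Mmp9, Mmp19 and Mmp12 in edgeR without a filter, beside -1.12, -1.27 and -0.99 in limma. None of the members passed an adjusted threshold in either tool, with a lowest adjusted p of 0.807 in edgeR without a filter and 0.131 in DESeq2.

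Of the membrane-type MMPs, which are anchored at the cell surface, Mmp14 activates the precursor of Mmp2 with the help of Timp2. Mmp14 was 335, 228 and 111 RPM in normocapnia and 197, 169, 252 and 227 RPM in hypercapnia (0.03, SE 0.40), so the hypercapnia libraries lay inside the normocapnia range. Mmp15 was 51.4, 4.75 and 1.03 RPM in normocapnia and 14.0, 15.6, 38.5 and 32.9 RPM in hypercapnia. Normocapnia 1 alone was above all hypercapnia libraries and the other two normocapnia libraries were below them all. The estimate of 1.5 (SE 1.17, limma adjusted p = 0.915) was 2.81 and called without normocapnia 1, and 0.47 without normocapnia 3. Mmp25, known from leukocytes, was 1.87, 0.898 and 1.03 RPM in normocapnia and 0.214, 0.553, 1.31 and 1.29 RPM in hypercapnia (-0.33, SE 0.29). Mmp11, a stromelysin that furin activates inside the cell, was 5.67, 1.24 and 1.10 RPM in normocapnia and 0.471, 0.502, 1.38 and 2.17 RPM in hypercapnia (-0.64, SE 0.53). Both overlapped between groups and were lowest in hypercapnia 1 and 2.

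All 4 TIMPs were measured and none was called, with estimates below 0 for each. Under the replicate block Timp4 was called lower (-0.73). Timp2, the partner of Mmp14, was 511, 376 and 657 RPM in normocapnia and 439, 494, 350 and 390 RPM in hypercapnia (-0.27, SE 0.22). It was the steadiest of the 4, with overlapping groups. Timp1, an X-linked inhibitor induced by inflammation, was 42.3, 40.9 and 23.9 RPM in normocapnia and 20.1, 18.6, 44.5 and 29.8 RPM in hypercapnia (-0.37, SE 0.38).

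Timp3, which binds to the matrix and also inhibits Adam17 and the proteoglycan-cleaving ADAMTS enzymes, split the hypercapnia group. It was 33.3, 24.0 and 53.1 RPM in normocapnia and 7.06, 7.69, 72.6 and 51.5 RPM in hypercapnia (-0.66, SE 0.98). Hypercapnia 1 and 2 were below every normocapnia library, whereas hypercapnia 3 and 4 were near or above normocapnia 3. Timp4 was 0.803, 1.67 and 5.09 RPM in normocapnia and 0.043, 0.804, 2.44 and 3.66 RPM in hypercapnia (-0.40, SE 0.68). For both genes, the 4 libraries with Xist lay below the 3 without. Adam10 and Mmp12 showed the opposite order, so that 4 of the 50 members were apart by this split, against 8.30% of all genes at this level. Within hypercapnia the endothelial, fibro-adipogenic, satellite cell, myofiber and neutrophil marker sums were also lower in libraries 1 and 2 than in 3 and 4. Normocapnia 3, which was high for Timp3 and Timp4, had the lowest of each sum within normocapnia (endothelial 89.6 RPM). Of the fibro-adipogenic list, Dcn (890 RPM) and Ly6a (69.3 RPM) were highest there within normocapnia, and the other markers lowest. The part of cell composition in these values was not tested.

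Of the 31 ADAM genes, 13 reached a mean of 1 RPM and none was called. Adam10 and Adam17 are the main sheddases of Notch receptors and of tumor necrosis factor. Adam17 was 36.9, 44.6 and 6.20 RPM in normocapnia and 70.5, 55.2, 32.1 and 39.4 RPM in hypercapnia. Normocapnia 3 was the low library, and hypercapnia 3 and 4 fell between or below normocapnia 1 and 2. The estimate of 1.05 (SE 0.73, limma adjusted p = 0.915) became 1.30 and was called once the presence of Xist was added as a covariate, a choice made after the values were seen. Without normocapnia 3 it was 0.21 and not called. Adam10 was 116, 200 and 31.0 RPM in normocapnia and 141, 120, 70.7 and 88.9 RPM in hypercapnia (0.17, SE 0.67).

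Adam8, Adam9, Adam15 and Adam19 are broadly expressed and have roles in cell adhesion and shedding, Adam8 mostly in leukocytes. Adam8 was 82.9, 359 and 215 RPM in normocapnia and 230, 272, 184 and 190 RPM in hypercapnia (0.22, SE 0.51). Adam9 was 144, 189 and 422 RPM in normocapnia and 174, 162, 173 and 174 RPM in hypercapnia (-0.40, SE 0.37). In both, the hypercapnia libraries sat inside the normocapnia range. Adam15 was 89.3, 309 and 79.9 RPM in normocapnia and 198, 208, 135 and 124 RPM in hypercapnia (0.31, SE 0.54), and it was called higher without normocapnia 2 (0.93) but was 0.04 without normocapnia 1 and -0.04 without normocapnia 3. Adam19 was 72.7, 78.5 and 28.8 RPM in normocapnia and 43.6, 55.3, 53.4 and 58.8 RPM in hypercapnia (-0.07, SE 0.38). The 4 hypercapnia libraries again fell inside the normocapnia range.

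Most other ADAM genes belong to testis or epididymis, and 10 of the 31 had at most 3 reads in all libraries together. Adam30 was 2.99, 10.0 and 1.51 RPM in normocapnia and 8.39, 8.34, 4.94 and 5.55 RPM in hypercapnia (0.67, SE 0.54), and it was called higher without normocapnia 2 (1.27) and was 0.21 without normocapnia 3. Adam6a stood at 0.446, 0 and 0.482 RPM in normocapnia and at 0.514, 0.151, 0.312 and 14.2 RPM in hypercapnia (0.91, SE 1.01). The level of Adam6a in hypercapnia 4 rested on 210 reads, against 0 to 12 in the other libraries. Adam6b (3.32 RPM) and Adam1b (3.45 RPM) also had their highest values in that library, and Adam6a and Adam6b are close copies whose reads may be shared. In the same library the 1057 olfactory receptor genes of the table, which muscle and myeloid cells are not known to use broadly, summed to 4474 RPM, against 83.1 to 453 RPM in the other 6. Its part in the Adam6a value was not tested.

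Of the 19 ADAMTS genes 14 reached a mean of 1 RPM, and none was called. They moved together from library to library more than between the groups: 10 of the 14 were highest in normocapnia 1 and 11 were lowest in normocapnia 3, which is also the lowest library for 49.0% of all genes at this level. The median deviation of their log2(RPM + 1) from the 7-library average was 1.41 in normocapnia 1, -0.22 in normocapnia 2 and -1.21 in normocapnia 3. In hypercapnia it was -0.24, -0.56, 0.72 and 0.59, so the spread within normocapnia exceeded the distance between groups.

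Among the proteoglycan-cleaving enzymes, Adamts1 was 89.9, 60.1 and 5.64 RPM in normocapnia and 38.9, 26.9, 121 and 80.0 RPM in hypercapnia (0.79, SE 1.08). Adamts4 was 68.2, 9.92 and 2.27 RPM in normocapnia and 17.5, 17.9, 44.5 and 33.0 RPM in hypercapnia (1.01, SE 1.08). Normocapnia 1 and hypercapnia 3 and 4 were the highest libraries for both. Adamts5 was 41.9, 19.1 and 14.5 RPM in normocapnia and 8.39, 7.04, 40.5 and 33.2 RPM in hypercapnia (-0.39, SE 0.78). Adamts9 was 19.8, 8.42 and 6.54 RPM in normocapnia and 3.25, 2.46, 21.0 and 12.9 RPM in hypercapnia (-0.48, SE 0.81). Hypercapnia 1 and 2 were lowest for both, as they were for Adamts15. Adamts15 was 13.6, 4.19 and 2.27 RPM in normocapnia and 0.984, 0.904, 4.44 and 5.28 RPM in hypercapnia (-0.90, SE 0.73).

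Adamts14 and Adamts2 remove the amino-terminal propeptide of fibrillar procollagens. Adamts14 was 88.3, 8.17 and 7.09 RPM in normocapnia and 24.1, 38.9, 52.1 and 57.4 RPM in hypercapnia (1.16, SE 0.95). As for Mmp15 and Adamts4, normocapnia 1 exceeded all hypercapnia libraries and the other two normocapnia libraries were below them all. Without normocapnia 1 the estimates of Adamts14 (2.29) and Adamts4 (2.18) were called, and without normocapnia 3 they were 0.55 and -0.02. Adamts2 was 40.5, 16.8 and 2.62 RPM in normocapnia and 13.3, 8.84, 19.0 and 24.7 RPM in hypercapnia (0.24, SE 0.89).

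Adamts10 and Adamts6 act on the fibrillin microfibrils of the matrix. Adamts10 was 28.0, 27.4 and 5.30 RPM in normocapnia and 17.4, 21.7, 19.5 and 20.0 RPM in hypercapnia (0.25, SE 0.58). Adamts6 was 3.70, 5.77 and 2.62 RPM in normocapnia and 2.74, 2.81, 2.75 and 2.71 RPM in hypercapnia (-0.37, SE 0.21), so that the hypercapnia libraries fell within a narrow band inside the normocapnia range. It was called lower without normocapnia 3 (-0.59) and was -0.14 without normocapnia 2. Adamtsl4, an ADAMTS-like protein without a protease domain, was 16.6, 58.7 and 3.37 RPM in normocapnia and 9.03, 13.5, 18.1 and 21.5 RPM in hypercapnia (-0.08, SE 0.91).

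**Figure D3:**
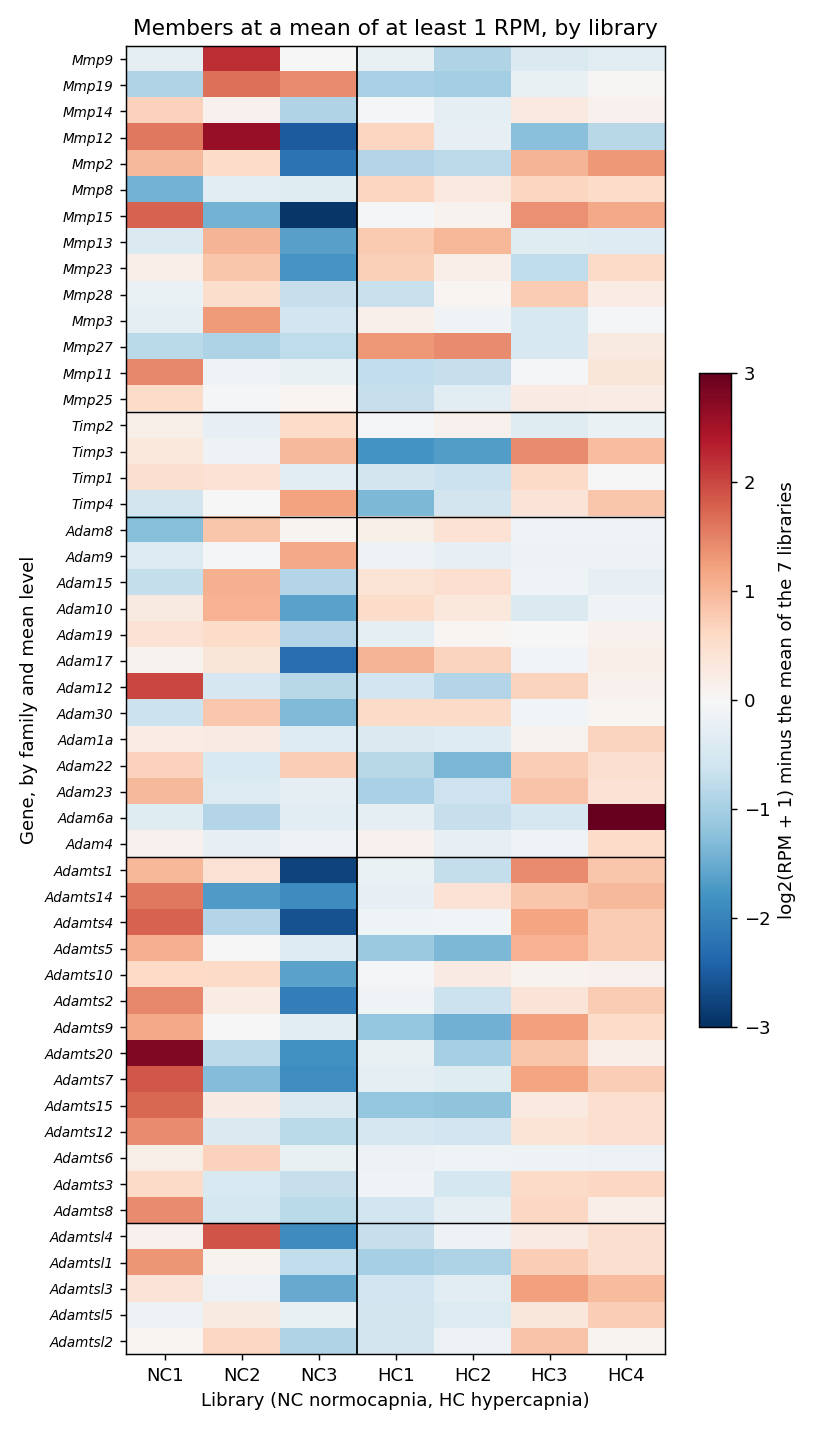
Deviation of log2(RPM + 1) from the mean of the 7 libraries (color, clipped at 3 each way) for the 50 members at a mean of at least 1 RPM (y axis, by family), in each library (x axis). Normocapnia 1 is high and normocapnia 3 low over most ADAMTS genes, Mmp27 is high in hypercapnia 1 and 2, and Adam6a is high in hypercapnia 4 alone.

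Differences between libraries of 1 group were large in the family. Among the 24 members at a mean of at least 10 RPM, the highest normocapnia library exceeded the lowest by a median of 5.45-fold, against 2.46-fold for all 8229 genes at that level. The ratio was above 3 in 17 of the 24, against 39.6% of all genes. In hypercapnia the median was 2.29-fold, against 1.45-fold for all genes, and the ratio was above 3 in 6 of the 24, against 7.24%. Of the 50 members at 1 RPM or more, 17 were highest in normocapnia 1 and 13 in normocapnia 2, and 27 were lowest in normocapnia 3. Over all genes at this level the shares were 31.4%, 15.7% and 49.0%, so the first and the last of these counts are near the background. For 20 of the 50 the 3 highest libraries, in any order, were normocapnia 1, hypercapnia 3 and hypercapnia 4. The same set held for 24.7% of all genes at this level. These 3 libraries were also the highest for the summed endothelial, fibro-adipogenic, satellite cell, myofiber, neutrophil and lymphocyte markers. These 20 included 12 ADAMTS genes, Adam12, Mmp2, Mmp11, Mmp15 and Mmp25. Mmp9 and Adam9 shared their 3 highest libraries, in any order, with the macrophage sum. That sum was highest in normocapnia 2, normocapnia 3 and hypercapnia 1, and 1.23% of all genes at this level shared this set. Lyz2 carried most of that sum, and the other 8 macrophage markers together were highest in normocapnia 2, hypercapnia 1 and hypercapnia 2 (9639, 7774 and 7652 RPM), with normocapnia 3 at 5499 RPM. The part of cell composition in these values was not tested.

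The partners and substrates of the family were also measured, as 5 lists with 111 genes. All were in the table, and 94 had a mean of at least 1 RPM, as had 12504 of all 23930 genes. Of the 111, 5 were called, 2 higher and 3 lower, against 2.57% of all genes called, 1.43% higher and 1.14% lower. The lowest adjusted p was 0.712 in limma. In the fit of genes at a mean of at least 1 RPM only, 6 of the 94 were called, against 4.46% of the genes fitted. Among 15 protease activators and serine protease inhibitors, Plau, the urokinase that generates plasmin and so activates several MMP precursors, rose from 352, 336 and 255 RPM to 725, 567, 400 and 466 RPM (log2 fold change 0.76, SE 0.24, limma adjusted p = 0.915). Its call was lost under 6 of 17 alternatives with the same thresholds: median-of-ratios scaling (0.61), edgeR with (0.71) and without (0.72) its filter, DESeq2 (0.66), and without hypercapnia 2 (0.72) or normocapnia 3 (0.61). Among 34 shed membrane proteins, 1 was higher and 3 were lower. Ereg, an EGF-family ligand released by Adam17, fell from 6.65, 50.3 and 22.0 RPM to 1.58, 0.703, 2.06 and 1.63 RPM (-3.09, SE 0.67). Areg, another ligand released by Adam17, fell from 12.7, 52.0 and 34.2 RPM to 9.76, 8.84, 7.93 and 3.79 RPM (-1.84, SE 0.55). All hypercapnia libraries were below all normocapnia libraries for both ligands. Ereg was called under all 17 alternatives that kept the unadjusted threshold, and Areg lost its call under the replicate block (-1.58) and without normocapnia 2 (-1.42) or 3 (-1.71). Tgfa, a further ligand released by Adam17 and named after its values were seen, lay on the other side, at 0.312, 0.043 and 0.069 RPM in normocapnia and 0.471, 0.653, 0.812 and 0.880 RPM in hypercapnia. Its groups did not overlap, and its log2 fold change of 0.58 (SE 0.12) was just under the fold threshold and was called under 6 of 16 alternatives. All its values were below 1 RPM. Those of normocapnia 2 and 3 lay below the worth of 3 reads in these libraries (0.128 and 0.207 RPM). Cdh1, the epithelial cadherin, fell from 9.23, 26.9 and 3.65 RPM to 1.20, 2.11, 2.62 and 1.96 RPM (-1.91, SE 0.62), and Slamf7, a leukocyte receptor, rose from 70.1, 46.1 and 45.4 RPM to 83.2, 108, 87.3 and 80.9 RPM (0.75, SE 0.19). Both lost their call under the replicate block (-1.91 and 0.79), and Cdh1 also without hypercapnia 1 (-1.77), 2 (-1.94) or 4 (-1.91) or normocapnia 1 (-1.96). None of 18 membrane partners, 28 matrix substrates and 16 other metalloproteases was called. The median log2 fold changes of the lists at 1 RPM or more ran from 0.02 to 0.23, beside 0.16 for all genes at that level.

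**Figure D4:**
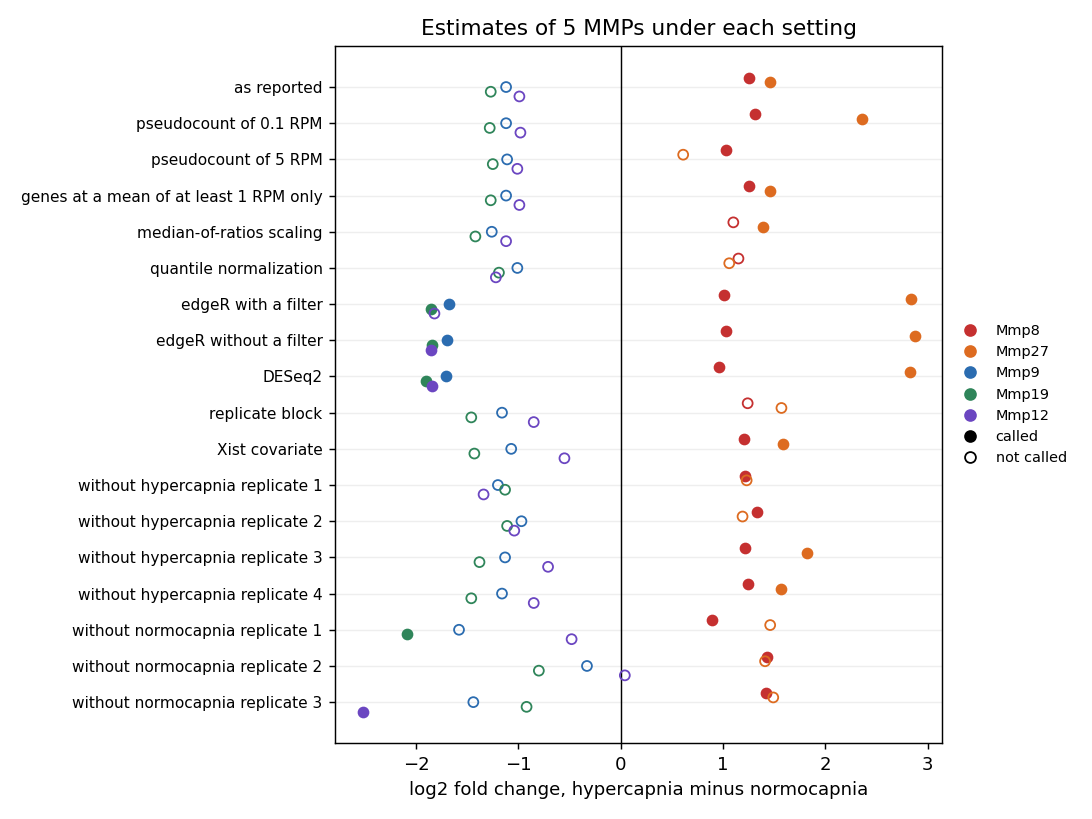
Log2 fold changes (x axis, hypercapnia minus normocapnia) of 5 MMPs under each setting (y axis), with filled circles where the gene was called. Mmp8 and Mmp27 stay above 0 throughout, whereas Mmp9, Mmp19 and Mmp12 are filled in 2 or 3 of the count models, and Mmp19 and Mmp12 also without 1 normocapnia library.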

How the data were processed

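RNA of the sorted cells was profiled by the authors with the Ion AmpliSeq mouse transcriptome panel, and the deposited table gives RPM per gene in the 7 libraries. Transcriptome Analysis Console is named in the submitters' processing notes. The aligner is not given in the sources used here, nor is the build. Every value came out as a whole number of reads (100% of values within 0.05 reads), so counts were recovered for edgeR, which called 802 genes with its filter and 1049 without, and DESeq2, which called 1304. Groups follow the sample titles. Limma 3.58.1 in R 4.3.3 was fitted to log2(RPM + 1) of the 23930 genes, low genes included, and fold changes are on that scale, which understates low genes. Alternatives were pseudocounts of 0.1 and 5 RPM, median-of-ratios and quantile scaling, keeping only genes that average 1 RPM or more, edgeR 4.0.16, DESeq2 1.42.0, a replicate block and leaving out each library. A covariate for Xist was added after the values were seen. Members, partner lists and marker lists were chosen with earlier results of these data known. Levels are given for all TIMPs, members at a mean of at least 10 RPM, called members, and the 2 members with the smallest p of each of the Mmp, Adam and Adamts families among the rest at 1 RPM or more. Lower members are named where a sentence turns on them, chosen after their values were seen. Amplicon sequences were not used here.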

Additional observations from a re-analysis of the deposited data

Results flagged for a closer look

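Among the 32 named members, 2 values stood apart from the other hypercapnia libraries by Dixon's criterion for 4 samples. Chance meets it in about 1 in 20 groups, so that some such values are due among 32 by chance alone. Adam6a was 14.2 RPM in hypercapnia 4, with the gap to the next library taking up 0.974 of the group's range. Adam9 was 162 RPM in hypercapnia 2, below 3 libraries that lay between 173 and 174 RPM, and the gap took up 0.91 of a narrow range.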

How the results depend on the processing

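Percentages beside the counts here are the shares of all genes called in the same setting. The members called numbered 2 as reported (2.57%), 1 with a pseudocount of 5 RPM (Mmp8, 1.83%) and 1 under median-of-ratios scaling (Mmp27, 2.56%). They numbered 4 in edgeR with its filter (6.03%), 5 in edgeR without it (4.38%) and 5 in DESeq2 (6.25%). The replicate block called 1 (Timp4, lower, 2.5%) and an adjusted p called 0. When a library was left out they ranged from 1 to 6 (1.57% to 8.32%). Quantile normalization called 3 (2.9%), all lower (Adamts15, Mmp11 and Mmp25), in place of the 2 higher. The partner genes called numbered 5 as reported (2.57% of all genes), 8 under median-of-ratios scaling (2.56%) and 3 under the replicate block (2.5%). They numbered 10 in edgeR with its filter (6.03%), 13 in DESeq2 (6.25%), 10 with the Xist covariate (5.06%) and 0 at an adjusted p. When a library was left out they ranged from 4 to 17, with 1.57% to 8.32% of all genes called. Leaving out normocapnia 1 gave the highest of both (6 and 17), and 8.32% of all genes were called there. The members' median log2 fold change ranged from -0.36 to 0.24 when a library was left out, and the median of all genes at 1 RPM or more was 0.16, 0.04 under median-of-ratios scaling and -0.01 under quantile normalization. Libraries that share a number did not all deviate together (correlations of -0.35, 0.50 and -0.04 for numbers 1 to 3, of which only the pair numbered 2 did). Libraries of unlike number reached 0.45 (normocapnia 2 with hypercapnia 1) and 0.39 (normocapnia 1 with hypercapnia 3). The replicate block therefore pairs libraries by number only. Of 541 estimates of the named members under alternatives, 509 kept their call status, 21 gained a call and 11 lost it. No called estimate changed sign, and 45 estimates of 15 members not called did. With 3 against 4 libraries and 14527445 to 23388710 reads, the spread between libraries limits the calls of the abundant members. Members below a mean of 1 RPM had at most 124 reads in all, and whether depth limits them was not tested.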
